A study of Mus musculus with 10 samples.

Results

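The choroid plexus is the secretory epithelium of the brain ventricles, and 10 genes of this tissue were followed in RNA of striatum punches: Ttr, Kl, Folr1, Clic6, Aqp1, Slc4a5, F5, Prlr, Enpp2 and Sostdc1. They were taken by gene name, as genes known from the choroid plexus epithelium, from a table of 21230 genes, and each had a single row. All 10 had a mean of at least 10 normalized counts over the libraries and entered the test, as did 15871 genes in all. The punches came from BACHD mice on the FVB/N background, heterozygous for a transgene of full-length human mutant HTT with mixed CAA-CAG repeats, a model of Huntington's disease. Mice of both sexes, about 3 months old at the start, received SPI-24, an inhibitor of the contact between the elongation factor Spt5 and RNA polymerase II, or the vehicle, DMSO with PEG, for 8 weeks from an osmotic pump under the skin that was exchanged once. There were 5 SPI-24 and 5 DMSO libraries, each labelled a biological replicate. All mice carried the transgene, so no wild-type level is known for these genes here, and the punches were small pieces of 2 mm brain slices taken by hand. The row named HTT, which has no mouse gene identifier, held 1732 to 2430 normalized counts in the SPI-24 libraries and 841 to 2520 in the DMSO libraries.

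The choroid plexus makes cerebrospinal fluid and separates it from the blood. Its epithelial cells carry ion transporters and water channels on their surface, take up folate and hormones, and secrete carrier proteins and enzymes into the fluid. The striatum itself contains none of this epithelium, which hangs in the lateral ventricle beside it. In bulk tissue, fewer cells of a type and less RNA per cell cannot be told apart.

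RefSeq promoter windows of the build GRCm38.p6 were searched for 5 of the 10 genes, Kl, F5, Aqp1, Slc4a5 and Prlr. The search and its motif counts cover no window of Ttr, Folr1, Clic6, Enpp2 or Sostdc1. The 250 bases before the RefSeq start of the first 4 are shown, as the windows in which a GC box was found. For Slc4a5 the RefSeq start lies inside the longer gene that GENCODE annotates. Capitals mark the GC box, the letters GGGCGG or, on the other strand, CCGCCC, which bind factors of the Sp family.
Kl, chr5:150952357-150952606, + strand: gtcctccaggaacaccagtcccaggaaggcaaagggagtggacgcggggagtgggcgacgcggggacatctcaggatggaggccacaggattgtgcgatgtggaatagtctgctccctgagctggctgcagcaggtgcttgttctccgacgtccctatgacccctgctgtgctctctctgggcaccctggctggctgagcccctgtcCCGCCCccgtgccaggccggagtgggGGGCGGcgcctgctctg
F5, chr1:164151585-164151834, + strand: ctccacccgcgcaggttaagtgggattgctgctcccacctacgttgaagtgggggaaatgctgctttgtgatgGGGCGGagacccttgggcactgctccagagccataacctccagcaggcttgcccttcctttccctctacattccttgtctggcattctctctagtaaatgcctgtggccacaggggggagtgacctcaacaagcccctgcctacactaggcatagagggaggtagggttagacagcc
Aqp1, chr6:55336049-55336298, + strand: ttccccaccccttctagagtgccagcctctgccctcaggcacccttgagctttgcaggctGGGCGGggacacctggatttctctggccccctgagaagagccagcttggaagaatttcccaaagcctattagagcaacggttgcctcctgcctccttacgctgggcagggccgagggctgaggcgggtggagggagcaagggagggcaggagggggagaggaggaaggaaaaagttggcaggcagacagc
Slc4a5, chr6:83237125-83237374, + strand: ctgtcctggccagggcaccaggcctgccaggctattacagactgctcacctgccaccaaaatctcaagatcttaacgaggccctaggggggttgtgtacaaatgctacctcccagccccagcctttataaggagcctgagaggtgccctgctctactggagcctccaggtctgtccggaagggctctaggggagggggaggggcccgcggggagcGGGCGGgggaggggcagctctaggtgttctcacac
The GC box was in 4 of the 7 windows of the 5 genes, Kl with a pair of them that do not overlap, and in none of the 3 Prlr windows, against 33.0% of 32544 promoter windows of the same length. The site TAATCC, read by OTX2, the homeodomain factor that choroid plexus needs, was searched on both strands and found in none of the 7 windows, against 6.25% of all windows. The forkhead motif TAAACA, also searched on both strands, was found in a pair of the 3 Prlr windows and in no other, against 12.03% of all windows. TATAAA, searched on the gene's own strand, was in none of the 7, against 7.55% of all windows. CCAAT, searched on both strands, was in 1 Prlr window, against 33.8%. None of the searched motifs overlapped another in the 4 sequences shown. A match of letters is a description of the window and not a bound site.

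Libraries of the same group differed widely in depth and in cell content. They held 7.38 to 29.6 M reads assigned to genes in SPI-24 and 5.48 to 46.9 M in DMSO. Marker genes of the medium spiny neurons, which make up most of the striatum, summed to 4233 to 121052 normalized counts in the SPI-24 libraries and 4474 to 112582 in the DMSO libraries. The defining markers of the labelled tissue were thus low in part of both groups. In DMSO replicate 3, the shallowest library, 4 of these 12 markers had no reads. Markers of thalamic and hypothalamic neurons summed to 6680 to 28772.5 normalized counts in SPI-24 and 708 to 27610 in DMSO. They were highest in SPI-24 replicate 1 and DMSO replicate 3, which held the lowest medium spiny neuron sums of their groups.

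Ttr (chr18:20665280-20674321) encodes transthyretin, which carries thyroxine and, bound to retinol-binding protein, retinol in cerebrospinal fluid and plasma. It had 17071, 24284, 1203, 2707 and 27127 normalized counts in SPI-24 replicates 1 to 5, against 181941, 9047, 13566, 92837 and 292 in DMSO replicates 1 to 5. DMSO replicates 1 and 4 were above every SPI-24 library and DMSO replicate 5 was below all of them, so the groups overlapped. Of all reads assigned to genes, Ttr took 0.851% in DMSO replicate 1 (exact binomial 95% interval 0.846 to 0.855%), where it ranked 11 among the genes. In DMSO replicate 5 it took 0.00171% (0.0016 to 0.00183%) and ranked 8326. The range was 624-fold within DMSO and 22.5-fold within SPI-24. The log2 fold change of SPI-24 over DMSO was -0.81 (SE 1.39, 95% interval -3.77 to 2.15, limma adjusted p = 0.999). Intervals on shares of reads, and limits for libraries without reads, cover only the error of counting, because PCR copies could not be told apart.

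Enpp2 (chr15:54838901-54952892) encodes autotaxin, the secreted enzyme that makes lysophosphatidic acid, and oligodendrocytes express it as well. It had 16321, 16551, 4452, 4423 and 15923 normalized counts in SPI-24 replicates 1 to 5, against 41583, 8051, 11932, 36963 and 5061 in the DMSO replicates. The same DMSO replicates, 1 and 4, lay above all SPI-24 libraries, but the whole range was only 9.40-fold. Its log2 fold change was -0.63 (SE 0.58, 95% interval -1.86 to 0.61, limma adjusted p = 0.999). Its level was 22.9% of the Ttr level in DMSO replicate 1 and 1735% of it in DMSO replicate 5, both as normalized counts of the whole gene.

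Kl (chr5:150952607-150993817) encodes klotho, the coreceptor for FGF23 that is also shed into cerebrospinal fluid. It had 381, 243, 38.3, 61.8 and 1122 normalized counts in SPI-24 replicates 1 to 5, against 2176, 267, 3.42, 1754 and 107 in DMSO replicates 1 to 5. The 3.42 in DMSO replicate 3 stand for 1 read, in a library where Ttr had 3969 reads, so Kl was 0.0252% of Ttr there and 1.003 to 36.7% in the other libraries. DMSO replicate 1 was 56.8-fold above SPI-24 replicate 3, the lowest library with more than 3 reads. The groups overlapped, and the log2 fold change was -0.18 (SE 1.42, limma adjusted p = 0.999).

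F5 (chr1:164151838-164220277) encodes coagulation factor V and had the lowest log2 fold change of the 10. It had 15.7, 24.9, 0, 13.5 and 51.7 normalized counts in SPI-24 replicates 1 to 5, against 203, 83.4, 147, 367 and 9.45 in DMSO replicates 1 to 5. In 4 of 5 DMSO libraries it was above every SPI-24 library, and DMSO replicate 5 lay among them. The log2 fold change was -2.97 (SE 1.35, 95% interval -5.86 to -0.09), with an unadjusted p of 0.0443 and an adjusted p of 0.999 from limma. No reads were found in SPI-24 replicate 3, which allows up to 1.89 normalized counts there, the value of 3 reads. F5 was below 0 in all 21 other fits that tested it, at -2.05 to -3.86, with no adjusted p under 0.793.

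Sostdc1 (chr12:36314139-36318452) encodes a secreted antagonist of BMP and Wnt signals. It had 20.3, 0, 4.40, 19.9 and 76.6 normalized counts in SPI-24 replicates 1 to 5, against 434, 18.4, 0, 294 and 30.2 in DMSO replicates 1 to 5. Each group had a library without reads, SPI-24 replicate 2 and DMSO replicate 3, where 3 reads would be worth 8.30 and 10.3 normalized counts. The log2 fold change was -1.74 (SE 1.76, limma adjusted p = 0.999).

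Both receptors among the genes varied with the same pair of DMSO libraries. Folr1 (chr7:101858331-101870788), the folate receptor through which the epithelium moves folate into the fluid, had 115, 210, 50.9, 71.7 and 387 normalized counts in SPI-24 replicates 1 to 5, against 1627, 15.1, 157, 1070 and 6.18 in DMSO replicates 1 to 5. It had the highest and the lowest values in DMSO, and its log2 fold change was 0.03 (SE 1.33, limma adjusted p = 0.999), the only one of the 10 above 0. That sign rests on the scale, since Folr1 was at -1.81 with edgeR and -1.79 with DESeq2 on recovered reads. Prlr (chr15:10177238-10349180), the prolactin receptor, had 277, 80.2, 185, 35.5 and 41.4 normalized counts in SPI-24 replicates 1 to 5, against 800, 68.3, 178, 593 and 53.1 in DMSO replicates 1 to 5. SPI-24 replicates 4 and 5 were below all DMSO libraries and replicate 3, poor in Ttr, was near the DMSO median. Its log2 fold change was -1.12 (SE 0.88, limma adjusted p = 0.999).

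The channels and transporters were also high in DMSO replicates 1 and 4. Aqp1 (chr6:55336432-55348555), the water channel of the apical membrane, had 77.2, 80.2, 26.4, 12.8 and 47.6 normalized counts in SPI-24 replicates 1 to 5, against 390, 48.0, 123, 297 and 0 in DMSO replicates 1 to 5. No SPI-24 library reached the DMSO median of 123, yet DMSO replicate 5 had no reads, which allows up to 1.09 normalized counts there, and the log2 fold change was -0.52 (SE 1.48, limma adjusted p = 0.999). Clic6 (chr16:92485736-92541243), a chloride intracellular channel protein, had 230, 376, 55.3, 27.0 and 652 normalized counts in SPI-24 replicates 1 to 5, against 1521, 381, 229, 1347 and 42.5 in DMSO replicates 1 to 5. One SPI-24 library exceeded the DMSO median and 1 lay below all DMSO libraries, and the log2 fold change was -1.29 (SE 1.002, limma adjusted p = 0.999). Slc4a5 (chr6:83219828-83304945), a sodium bicarbonate cotransporter, had 43.2, 0, 0, 0 and 97.3 normalized counts in SPI-24 replicates 1 to 5, against 427, 26.3, 0, 151 and 6.18 in DMSO replicates 1 to 5. It was read in 2 of 5 SPI-24 and 4 of 5 DMSO libraries, and its log2 fold change of -2.30 (SE 1.94, limma adjusted p = 0.999) depends on how libraries without reads are scaled.

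**Figure D1:**
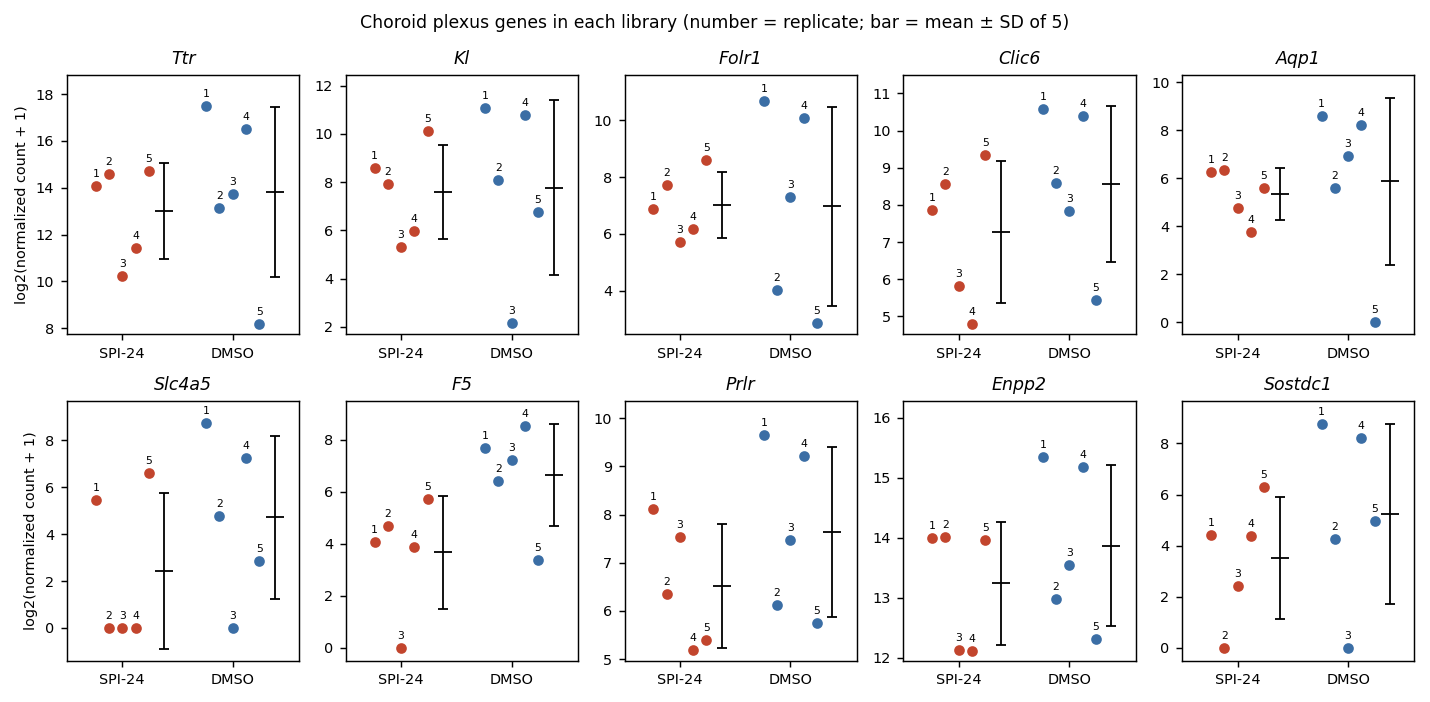
Each panel plots 1 gene as log2(normalized count + 1) in the 5 SPI-24 libraries (red, left) and the 5 DMSO libraries (blue, right), numbered by replicate, with the mean and SD of each group as a black bar. DMSO replicate 1 is the highest library for 9 of the 10 genes and DMSO replicate 4 for F5, and the groups overlap in every panel.

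None of the 10 genes passed an adjusted p of 0.05 in limma, and none of the 15871 genes tested did (0%). At an unadjusted p under 0.05, 1 of the 10 was lower in SPI-24, F5, against 1.27% of all genes tested, and none was higher. In all, 354 genes (2.23%) were below that p in either direction. Of the 10, 9 had a log2 fold change below 0, against 49.8% of all genes tested, and 5 of the 10 had one of -1 or below, against 11.4%. The median over the 10 genes was -0.97, beside 0.00 over all genes tested. On recovered reads it was -1.81 with edgeR and -1.80 with DESeq2, and all 10 genes were below 0, against 51.9% of genes with edgeR and 53.0% with DESeq2. The SPI-24 and DMSO values overlapped for all 10 genes, as for all but 0.517% of the genes tested. Because the 10 genes move together from library to library, these counts do not come from 10 separate observations. Their standard errors ran from 0.58 to 1.94 on the log2 scale, against a median of 0.47 over all genes. Without DMSO replicate 1 the median over the genes was -0.44 and 6 of the 10 were below 0, without DMSO replicate 4 the median was -0.52, without SPI-24 replicate 4 it was -0.54, and without DMSO replicate 5 it was -1.90. In the 7 libraries above 11 M reads, without SPI-24 replicates 2 and 5 and DMSO replicate 3, a setting added after the data had been seen, the median was -2.24 and all 10 were below 0, against 51.1% of genes. Of the 10, 5 then had an unadjusted limma p under 0.05, against 3.42% of genes in the lower direction, and no adjusted p was under 0.05. These 5 were Kl, Clic6, Slc4a5, F5 and Sostdc1. The setting also dropped the SPI-24 libraries with the highest mean log2 level of medium spiny neuron markers, each marker centred on its own mean. This level was 1.75 and 3.49 there, -2.22 to -1.38 in the SPI-24 libraries kept and -1.15 to 3.38 in the DMSO libraries kept. In the dropped DMSO replicate 3 it was -3.50. The part of this level in the values of the setting was not tested.

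**Figure D2:**
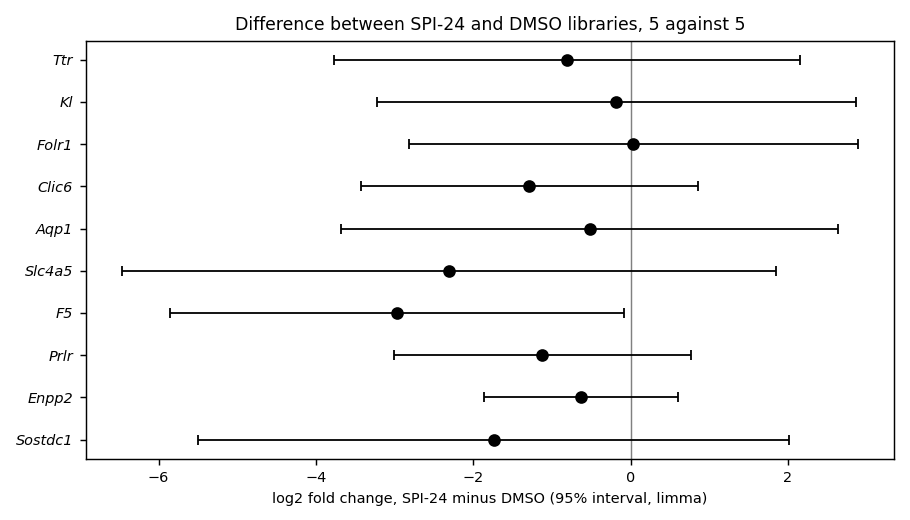
The horizontal axis is the log2 fold change of SPI-24 over DMSO from limma, with its 95% interval, for each of the 10 genes (5 against 5 libraries). Only the interval of F5, from -5.86 to -0.09, excludes 0, and no adjusted p was under 0.999.

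The genes were compared with Ttr over the 10 libraries, on log2(normalized count + 1), in 9 relations. Pearson's r was 0.93 for Enpp2, 0.93 for Aqp1, 0.92 for Clic6, 0.89 for Folr1 and 0.77 for F5, with permutation p from 4e-05 to 0.00999 and Benjamini-Hochberg adjusted p from 0.00036 to 0.018 (100000 resamples, two-sided). It was 0.63 for Slc4a5, 0.61 for Prlr and 0.60 for Kl, at a permutation p of 0.0547 to 0.0682 and an adjusted p of 0.0768, and 0.38 for Sostdc1 (adjusted p = 0.275 by permutation). By Spearman's rho, which ran from 0.49 to 0.95, Kl and Slc4a5 also passed, making 7 of 9. Left without SPI-24 replicate 3 and DMSO replicate 5, the libraries farthest from the median of Ttr, r ran from 0.56 for Sostdc1 to 0.99 for Enpp2, F5 was at 0.69 (adjusted p = 0.0709 by permutation) and Prlr at 0.80 (0.0277). No correlation is given within a group of 5 libraries, but in SPI-24 not every gene followed Ttr. SPI-24 replicate 5, the highest of its group in Ttr, had 41.4 normalized counts of Prlr, and replicate 3, the lowest in Ttr, had 185. SPI-24 replicate 2, second in Ttr, had no reads of Sostdc1 or Slc4a5. Over all other genes tested, the median r with Ttr was -0.07. For each doubling of Ttr, Aqp1 was higher by 0.81 on the log2 scale and Folr1 by 0.78, but Enpp2 by 0.39 and Prlr by 0.34.

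**Figure D3:**
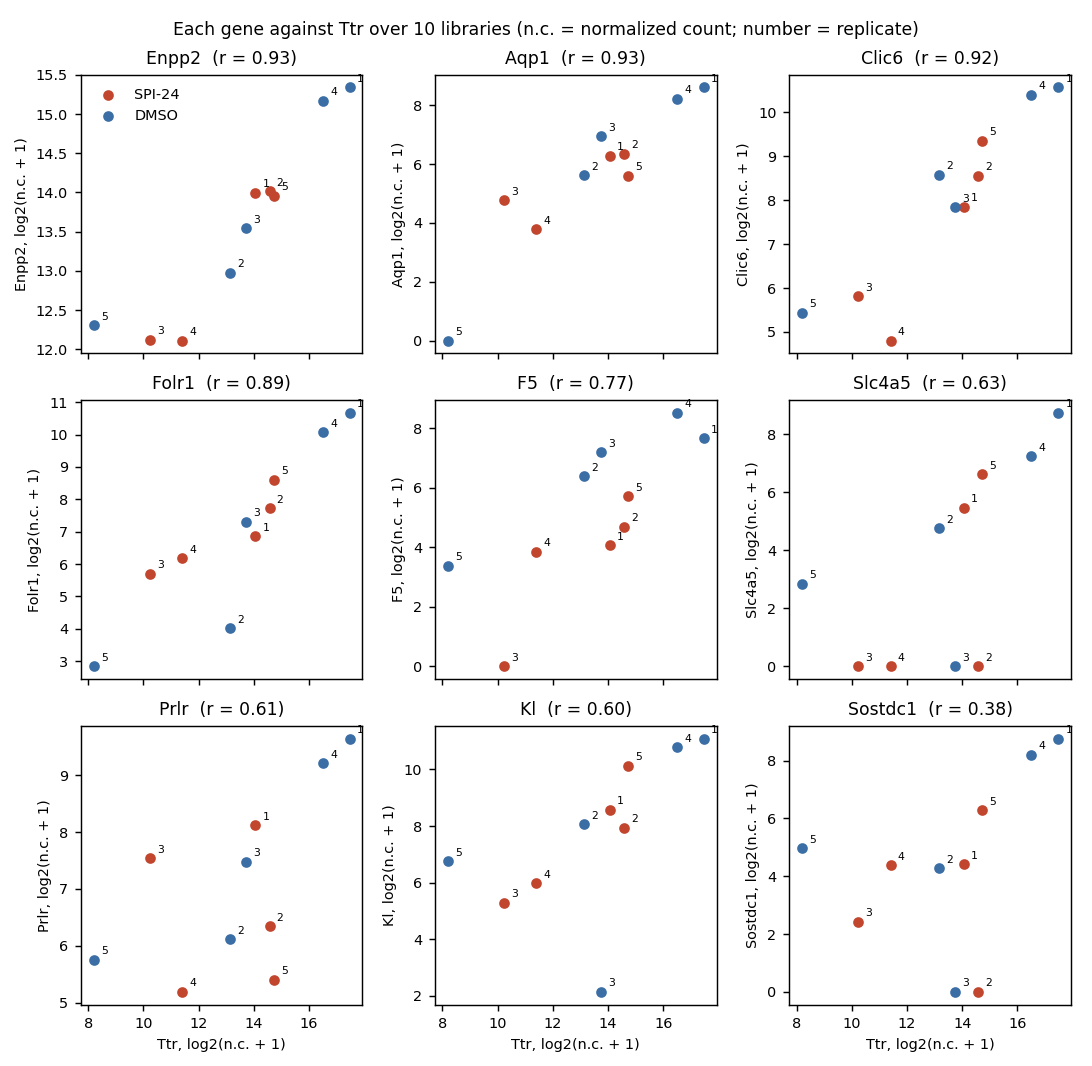
Each panel plots 1 gene (vertical axis) against Ttr (horizontal axis), both as log2(normalized count + 1), over the 5 SPI-24 (red) and 5 DMSO (blue) libraries numbered by replicate. Enpp2, Aqp1 and Clic6 follow Ttr closely (r of 0.92 to 0.93), whereas DMSO replicate 3 lies low for Kl, Slc4a5 and Sostdc1 and SPI-24 replicate 2 is at 0 for Slc4a5 and Sostdc1.

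Per kilobase of exon, the levels averaged over the 10 libraries were, from high to low, those of Ttr, Enpp2, Folr1, Clic6, Kl, Sostdc1, Aqp1, Prlr, Slc4a5 and F5. Ttr had 31204 ± 48613 and Enpp2 2790 ± 2279 normalized counts per kb (SD over 10 libraries), and Ttr was the higher in 9 of 10 libraries. Enpp2 was above Folr1, at 162 ± 236, in 10 of 10. Further down, Clic6 exceeded Kl in 9 of 10 libraries and Aqp1 exceeded Prlr in 8. Folr1 exceeded Clic6 in 6, Kl exceeded Sostdc1 in 7, Sostdc1 exceeded Aqp1 in 5, Prlr exceeded Slc4a5 in 7 and Slc4a5 exceeded F5 in 3, and these neighbours were not separated beyond their spread.

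The mean level of the 10 genes, each centred on its own mean, was 0.43, -0.52, -2.14, -1.77 and 1.11 log2 units in SPI-24 replicates 1 to 5, against 3.32, -0.14, -0.91, 2.90 and -2.29 in DMSO replicates 1 to 5. Of 40 further choroid plexus genes, 39 were tested. Of these, 35 had a log2 fold change below 0 and 4 above, against 49.8% of all genes tested below 0. Their median was -0.67. None was called, and 4 had an unadjusted limma p under 0.05, all lower in SPI-24, against 1.27% of all genes tested. These were Msx1, Trpm3, Spint2 and Pcolce. The authors report Msx1 among the genes lower with SPI-24, from DESeq2 on these libraries, so it is no independent member of this count. The mean level of the list was highest in DMSO replicates 1 and 4, at 2.36 and 2.06, so these counts do not come from separate observations. The mean level of this list correlated with that of the 10 genes at r = 0.87 (rho = 0.79) over the 10 libraries, and at 0.55 without DMSO replicates 1 and 4, given as a description because the lists were chosen for the same tissue. The 4 genes of this list with the highest means had log2 fold changes of -0.57 (SE 0.36) for Vat1l, -0.03 (SE 0.33) for Igfbp2, 0.11 (SE 0.29) for Slc12a2, a sodium, potassium and chloride cotransporter, and -0.05 (SE 0.31) for Cab39l. Kcne2, a potassium channel subunit of this epithelium, had 56.9, 498, 0, 0 and 335 normalized counts in SPI-24 replicates 1 to 5, against 708, 115, 191, 410 and 0 in DMSO replicates 1 to 5. Of the list, 3 to 14 genes had no reads in a SPI-24 library and 0 to 18 in a DMSO library, with the 18 in DMSO replicate 3, the shallowest library, where Kcne2 was read.

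The mean level of ependymal markers, genes of the ciliated cells that line the ventricle wall, was highest in DMSO replicates 1 and 4. Single markers did not all follow this mean. Of 18 markers tested, 14 were below 0 and 4 above, with a median of -0.96, against 49.8% of all genes tested below 0. At an unadjusted limma p under 0.05, 1 of the 18 was lower, against 1.27% of all genes tested. It was Ak7, which the authors report among the genes lower with SPI-24 in these libraries, so the count is no independent support. The mean level of the 18 markers ran from -2.02 to 0.60 in SPI-24 and from -2.59 to 2.99 in DMSO, with r = 0.78 to the 10 genes over the libraries (0.35 without DMSO replicates 1 and 4). Of 19 in the table, 6 to 12 had no reads in a SPI-24 library and 0 to 15 in a DMSO library. Foxj1, the transcription factor of motile cilia, had reads in all libraries, at 98.0 to 252 normalized counts in SPI-24 and 195 to 572 in DMSO. It was highest in DMSO replicate 4, but its 218 in DMSO replicate 1 was below the 252 in SPI-24 replicate 5. Ccdc153, another cilia gene, was at 0 in SPI-24 replicate 3 and DMSO replicates 2 and 3. Its highest value was 863 in SPI-24 replicate 2, against 455 and 425 in DMSO replicates 1 and 4. The medium spiny neuron level ran from -2.22 to 3.49 in SPI-24 and from -3.50 to 3.38 in DMSO, with r = 0.74 to the 10 genes over the libraries (0.55 without DMSO replicates 1 and 4). Oligodendrocyte markers, of cells that also express Enpp2, ran only from -0.55 to 0.47 in SPI-24 and from -0.45 to 0.53 in DMSO, with r = 0.54 to the 10 genes (0.90 without DMSO replicates 1 and 4). Markers of hippocampal and cortical neurons ran the other way, from -1.32 to 1.94 in SPI-24 and from -1.67 to 1.85 in DMSO, with r = -0.62 to the 10 genes (-0.64 without DMSO replicates 1 and 4). The part of ependymal, neuronal and oligodendrocyte content in the differences between the groups was not tested by these values. The level of the 39 further choroid plexus genes was also taken as a covariate. Of the 10 genes, 5 were then below 0, against 47.5% of all genes tested, and the median was -0.09. Kl was at 1.73 (unadjusted p = 0.0263, adjusted p = 0.765, limma). This covariate had a mean of -0.48 in SPI-24 and 0.48 in DMSO and followed the 10 genes. The fit takes out a difference shared by both lists, so a smaller median was built into it. The covariate was not shown to measure choroid plexus content alone. In DMSO replicate 5 it stood at -0.41, against -2.29 for the 10 genes and 3.13 for markers of fibroblasts and meninges. With the medium spiny neuron level as a covariate, 9 of the 10 were below 0, against 49.8% of all genes tested, and the median was -0.94.

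**Figure D4:**
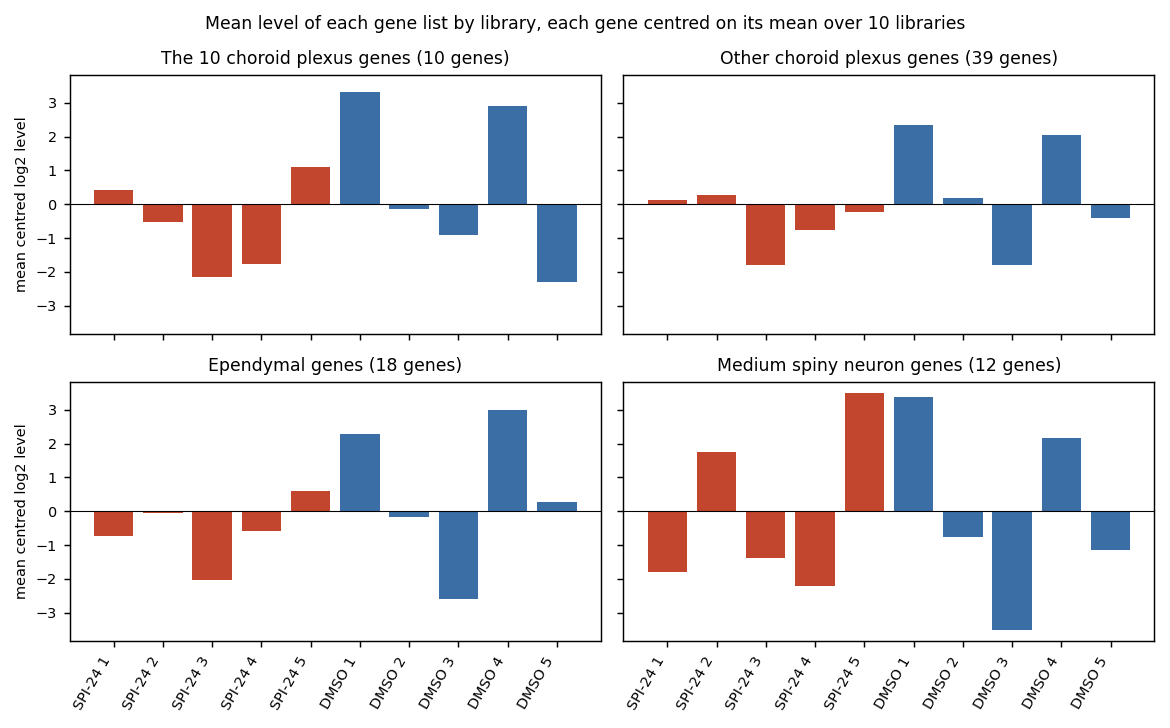
Bars give the mean log2 level of a gene list in each library (vertical axis, log2 units from the mean over 10 libraries), with SPI-24 libraries in red on the left and DMSO libraries in blue on the right. The 10 genes, the other choroid plexus genes and the ependymal genes are all highest in DMSO replicates 1 and 4, while the medium spiny neuron genes are also high in SPI-24 replicates 2 and 5.

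The levels of Ttr and Enpp2, but not of the other 8 genes, separated fully by the Y-linked gene Ddx3y, which was looked up after the values were seen. The labels give no sex. Ddx3y was at 0.65 normalized counts or less in 5 libraries, SPI-24 replicates 1, 2 and 5 and DMSO replicates 1 and 4, and at 746 to 1465 in the others. Xist, the RNA of the inactive X chromosome, was at 109 in SPI-24 replicate 1 and at 1845 to 7243 in the rest of the first 5. It was at 0 to 27.7 in the libraries with Ddx3y. The 5 libraries without Ddx3y held the 5 highest values of Ttr, at 17071 to 181941 against 292 to 13566, and of Enpp2, at 15923 to 41583 against 4423 to 11932. Of all genes tested, 0.838% separated these libraries in that direction. For the other 8 genes, 3 or 4 of the 5 highest libraries were those without Ddx3y, and the share of all genes with such an order was not counted. The mean level of the 10 genes overlapped, at -0.52 to 3.32 in the 5 libraries without Ddx3y and -2.29 to -0.14 in the others. The medium spiny neuron level was -1.80 to 3.49 in these 5 and -3.50 to -0.75 in the others, and 4 of the 5 without Ddx3y were above all the others, the exception being SPI-24 replicate 1. The part of sex, and of where the punch was taken, in the levels of the 10 genes was not tested.

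Among the libraries without Ddx3y, all 10 genes were lower in each of the 3 SPI-24 libraries than in both DMSO libraries, against 9.12% of the genes tested. The 10 genes share the same 2 DMSO libraries there, and those libraries are the highest of all for each of the 10. The count of 10 therefore follows from those 2 libraries alone and does not come from 10 separate observations. Among the libraries with Ddx3y, 1 of the 10 was lower in both SPI-24 libraries than in the 3 DMSO libraries, against 7.28% of the genes tested. This gene was Enpp2, with 4452 and 4423 normalized counts in SPI-24 replicates 3 and 4, against 8051, 11932 and 5061 in DMSO replicates 2, 3 and 5. With the level of Ddx3y as a covariate, added after the data had been seen, all 10 log2 fold changes were below 0, with a median of -1.61. Then 4 of the 10 had an unadjusted limma p under 0.05, against 1.22% of genes in the lower direction. Enpp2 was at -1.07 (SE 0.22, unadjusted p = 0.000248), Clic6 at -1.98 (SE 0.60, unadjusted p = 0.00517), F5 at -3.55 (SE 1.23, unadjusted p = 0.0119) and Ttr at -1.77 (SE 0.82, unadjusted p = 0.0487), all from limma. The adjusted p was 0.998 for each, and no gene in the table was called. Ddx3y was taken up after the values were seen and separates Ttr and Enpp2 fully. As a covariate it lowers their SE, which for Enpp2 was 0.22 against 0.58 without it. These unadjusted p-values are therefore no independent support for a difference.

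Genes that act with the 10 lay on both sides of 0. Of 30 such partners, 27 were in the table and 24 were tested, of which none was called. Of the 24, 11 were below 0 and 13 above, with a median of 0.01, against 49.8% of all genes tested below 0. Rbp4, the retinol-binding protein that transthyretin carries, had 86.3 to 466 normalized counts in SPI-24 and 0 to 357 in DMSO. Stra6, its receptor, had 61.5, 133, 59.7, 90.2 and 112 normalized counts in SPI-24 replicates 1 to 5, against 0, 19.7, 0, 31.2 and 55.6 in DMSO replicates 1 to 5. Every SPI-24 library was above every DMSO library, where 0.517% of the genes tested had groups that did not overlap in either direction, and Stra6 had an unadjusted limma p of 0.0262 at a log2 fold change of 3.42 (SE 1.38, adjusted p = 0.999). Its size depends on DMSO replicates 1 and 3, which had no reads. Slco1c1, the thyroxine transporter, had a log2 fold change of -0.01 (SE 0.24), and Dio2, which activates thyroxine, of 0.25 (SE 0.24). Fgfr1, which forms the FGF23 receptor with klotho, was at 0.31 (SE 0.35), and Fgf23 itself was read in 1 library, at 7.27 normalized counts in DMSO replicate 5. Slc46a1, the proton-coupled folate transporter, was at 0.62 (SE 0.36). Jak2, the kinase of the prolactin receptor, was at -0.28 (SE 0.30) and Stat5b, a factor downstream of it, at -0.08 (SE 0.30). Lpar1, a receptor for the product of autotaxin, was at -0.05 (SE 0.23). Slc4a4 and Slc4a10, bicarbonate transporters of the family of Slc4a5, were at 0.14 (SE 0.21) and -0.11 (SE 0.23). Aqp4, the water channel of astrocytes, was at -0.09 (SE 0.25), and Clic4, of the family of Clic6, at 0.13 (SE 0.19).

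Of the 15861 other genes tested, the 10 whose log2 levels followed the mean of the 10 choroid plexus genes most closely were Sh3glb1 (r = 0.94), Rsph1 (0.90), Gpm6b (0.90), Dach1 (0.88), Tlk2 (0.88), Amer2 (0.88), Kif5b (0.88), Mier3 (0.88), Prr32 (0.87) and Krt18 (0.87), over 10 libraries. Rsph1, a radial spoke protein of motile cilia, is on the ependymal list and Krt18, a keratin of simple epithelia, on the further choroid plexus list. Krt18 had 0 to 97.3 normalized counts in SPI-24 and 0 to 364 in DMSO, and Rsph1 had 20.1 to 77.5 in SPI-24 and 11.6 to 365 in DMSO. Sh3glb1 spanned only 1759 to 2262 normalized counts in SPI-24 and 1705 to 2756 in DMSO. A high r therefore came with ranges of very different size.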

How the data were processed

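RNA of striatum punches was sequenced in 10 libraries, 5 SPI-24 and 5 DMSO, grouped by the sample labels. The authors made stranded mRNA libraries and sequenced single reads at 2 sites. Trimming was by cutadapt, alignment to GRCm38 by STAR with an Ensembl annotation, and counting by htseq-count, without short or multi-mapped reads. For versions, the strand setting and the site of each library, nothing is given in the sources used here. These tools and the build also stand in the submitters' processing notes. The deposited signal is a gene's read count over 1 DESeq2 size factor per library, called the normalized count. Deposited columns of log2 fold change, p-value and adjusted p-value, from the authors' DESeq2 comparison, were not used. Of 154521 values above 0, 99.999% came out as whole reads within 0.1 of a read, and reads were recovered in this way.

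SPI-24 was set against DMSO with limma-trend (limma 3.58.1, R 4.3.3) on log2(normalized count + 1), for the 15871 of 21230 genes with a mean of at least 10, with Benjamini-Hochberg adjustment over all of them and a threshold of 0.05. The added 1 damps fold changes of genes with few counts, while a library without reads can enlarge them. Depth ran from 5.48 to 46.9 M reads assigned to genes, and 3 reads served as the limit for a library without reads. The limma p-values set the difference between the groups against the spread between libraries of a group, moderated over all genes tested. Correlations were tested by permutation (scipy 1.17.1). Positions and exon lengths come from GENCODE M21 on GRCm38, in which all 10 genes were found, and promoters from RefSeq (GRCm38.p6).

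The genes and gene lists were chosen with earlier results of these data known, so none is independent support. Beside the 10 genes, the text names genes with the highest mean of a list, partner genes by role, and the 10 genes most like the mean of the 10. Kcne2, Foxj1, Ccdc153, Ak7, Msx1, Trpm3, Spint2, Pcolce, Ddx3y and Xist are outside this rule and were named after their values were seen. Alternatives were pseudocounts of 0.5 and 10, no filter, at least 10 in each library, limma without trend, edgeR 4.0.16 with TMM and DESeq2 1.42.0 on recovered reads, the replicate number as a block, gene list levels as covariates and each library left out. The 7 libraries above 11 M reads and the level of Ddx3y as a covariate were added after the data were seen. The fits were tested on simulated data.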

Additional observations from a re-analysis of the deposited data

Results flagged for a closer look

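In 1 of 20 groups of 5 libraries, 10 genes in 2 groups, a single library lay far from the rest by Dixon's criterion, and chance gives about 1 in 20. Sostdc1 had 76.6 normalized counts in SPI-24 replicate 5, and the nearest SPI-24 library had 20.3. On the log2 scale 0 of the 20 groups held such a library.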

How the results depend on the processing

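No gene was called by limma under any setting or by edgeR with TMM, and 5 were by DESeq2, none of them among the 10. The genes at an unadjusted p under 0.05 numbered 354, and 168 with edgeR, 671 with DESeq2, 1012 with the other choroid plexus genes as covariate, 930 in the 7 deeper libraries and 534 with the medium spiny neuron level as covariate. With libraries left out in turn, 0 genes were called, 6 to 10 of the 10 genes were below 0 and their median was -1.90 to -0.44. The filter of 10 in every library left 4 of the 10 genes, and all 4 were below 0. With the other choroid plexus genes as covariate 5 of the 10 were below 0. Of 214 log2 fold changes of single genes under the alternatives, 194 kept their sign and 20 did not. Those that did not were Folr1 with a pseudocount of 10 (-0.23), edgeR (-1.81), DESeq2 (-1.79), the 7 deeper libraries (-0.65) and Ddx3y as covariate (-0.77), and Ttr (0.67), Kl (1.73), Aqp1 (0.40) and Enpp2 (0.033) with the choroid plexus covariate. With 1 library left out, Ttr ranged from -2.21 to 0.11, Kl from -1.59 to 0.65, Folr1 from -0.9996 to 0.96 and Aqp1 from -1.99 to 0.16. The lowest of these came without DMSO replicate 5 for Ttr, Folr1 and Aqp1 and without DMSO replicate 3 for Kl, and the highest without DMSO replicate 1 for each. The cause was not tested. A pseudocount of 10 let Kl (adjusted p = 0.0427 by permutation) and Slc4a5 (0.0247) pass in their correlation with Ttr.

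Same-numbered SPI-24 and DMSO libraries did not deviate together (correlations of -0.13 to -0.01), so the numbers pair nothing. With the replicate block, 0 genes and 0 of the 10 were called, 316 genes had an unadjusted p under 0.05, and the unadjusted p of F5 was 0.0772 in place of 0.0443. Log2 fold changes cannot change under this block, since each number has 1 library in each group. Each library correlated best with its own number in 0 of 5 SPI-24 and 0 of 5 DMSO libraries.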
